A study of Mus musculus with 15 samples.

Results

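The genes described here are 41 markers of the cells that build the blood vessels of the brain, out of 21938 protein-coding genes annotated in GENCODE version M21. They comprise 28 genes of endothelial cells and 13 genes of mural cells, the vascular basement membrane and fibroblasts. They were listed by name as genes known to mark these cells. The rule used no H3K4me3 value, but the list was drawn up with earlier results of these data known. The study profiled H3K4me3, trimethylation of lysine 4 on histone H3, by ChIP-seq in the amygdala of adult male mice from the F1 generation 129xB6. Its 15 samples comprised 11 H3K4me3 samples, from WT, Kmt2a-HET, Kdm5c-KO and Kmt2a-Kdm5c double mutant mice, and 4 inputs without antibody. The values below come from the WT mice, which carry neither mutation, and the samples of the mutant genotypes were not analysed here. The 2 WT samples were deposited as 1 list of peak summits, the positions of highest signal, so the values carry no spread between mice, and no difference between the scores of genes could be tested.

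The list held 24139 summits on chromosomes 1 to 19, X and Y of mm10 (GRCm38). Each had a score, which was taken to be −log10 of its q-value, with a median of 102.3 and a range of 1.18 to 341.7. A gene is called marked when at least 1 summit lay within 1 kb of any of its annotated transcription start sites (TSSs), and its best score is the highest among these promoter summits. The nuclei came from whole amygdala tissue. A low score at a gene of a minor cell type can therefore stem from few cells of that type or from little H3K4me3 per cell, and these cannot be told apart. For comparison, 19 of 20 neuronal markers were marked, with a median best score of 208. Of 20 genes specific to liver, pancreas, muscle, skin, blood, kidney or lung, 2 were marked, with best scores of 18.6 and 9.05. Over all protein-coding genes 64.7% were marked, with a median of 195. The 2 lists differ in CpG content, defined below. CpG-poor genes, of which 13% were marked in general, were 2 of the neuronal markers and 17 of the other-tissue genes. Whether the contrast reflects the tissue apart from CpG content was not tested.

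Brain endothelial cells form the blood-brain barrier. They seal the space between cells with tight junctions, restrict vesicular traffic and move nutrients and waste through dedicated transporters. Pericytes and smooth muscle cells, together called mural cells, wrap the endothelial tube, share its basement membrane and control vessel stability and tone, while fibroblasts lie along larger vessels and in the meninges. H3K4me3 is deposited around the TSSs of genes engaged in transcription, and promoters rich in CpG dinucleotides tend to carry it across many cell types.

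Nearly all endothelial genes were marked, mostly with weak summits, and the mural and fibroblast genes were marked less often and more weakly still. Of the 28 endothelial genes, 27 had a promoter summit, or 96.4% (95% Wilson interval 82.3 to 99.4%), beside 64.7% of all protein-coding genes. Of the 13 mural, basement membrane and fibroblast genes, 9 had a promoter summit, or 69.2% (42.4 to 87.3%). These intervals cover counting error only. The difference of 27.2 percentage points had a 95% Newcombe interval of 4.24 to 54.2. The genes were listed by name and not drawn at random, so this interval is a description and not a test. Endothelial genes had a median of 5 annotated TSSs, against 3 for mural and fibroblast genes and 3 over all protein-coding genes. The part of this in the shares and their difference was not tested beyond the setting with the outermost TSS only, given below. The groups also differed in CpG content. Of the 28 endothelial genes 10 were CpG-poor, and of the 13 mural and fibroblast genes 8, including the 4 unmarked ones. The part of CpG content in the difference was not tested, and values by CpG class are given below.

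The best scores of both groups lay low among marked genes. The 27 marked endothelial genes had a median best score of 47.2 (quartiles 27.5 and 125), against 195 (129.8 and 230.2) for all marked protein-coding genes. The 9 marked mural and fibroblast genes had a median of 8.01 (6.20 and 29.9). The 95% intervals of these medians over genes, 32.3 to 123 for endothelial and 4.45 to 70.4 for mural and fibroblast genes, overlapped. These, too, are descriptions and not tests. With a window of 500 bp the medians were 43.7 and 29.9, the latter over 5 genes. Best scores were below the median of all marked genes for 25 of the 27 endothelial genes and 8 of the 9 mural and fibroblast genes, beside 49.5% of marked genes in general. They were below the lower quartile for 22 and 8 genes, respectively, beside 25% in general. Vtn, Rgs5, Anpep, Dcn, Abcc9 and Myh11 scored 3.77 to 10.2, and Emcn, Pecam1, Ly6a, Ly6c1, Tie1 and Vwf 6.03 to 17.3. The 2 marked genes of other tissues scored 9.05 and 18.6. Marks at this level therefore cannot be told from those of genes of other tissues. In 77.8% of the 243 pairs of a marked endothelial gene and a marked mural or fibroblast gene, the endothelial gene had the higher score. A promoter summit scoring 102.3, the list's median, or more was present for 9 of the 28 endothelial genes (32.1%, 17.9 to 50.7%) and for 1 of the 13 others (7.69%, 1.37 to 33.3%), beside 52% of all protein-coding genes.

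**Figure D1:**
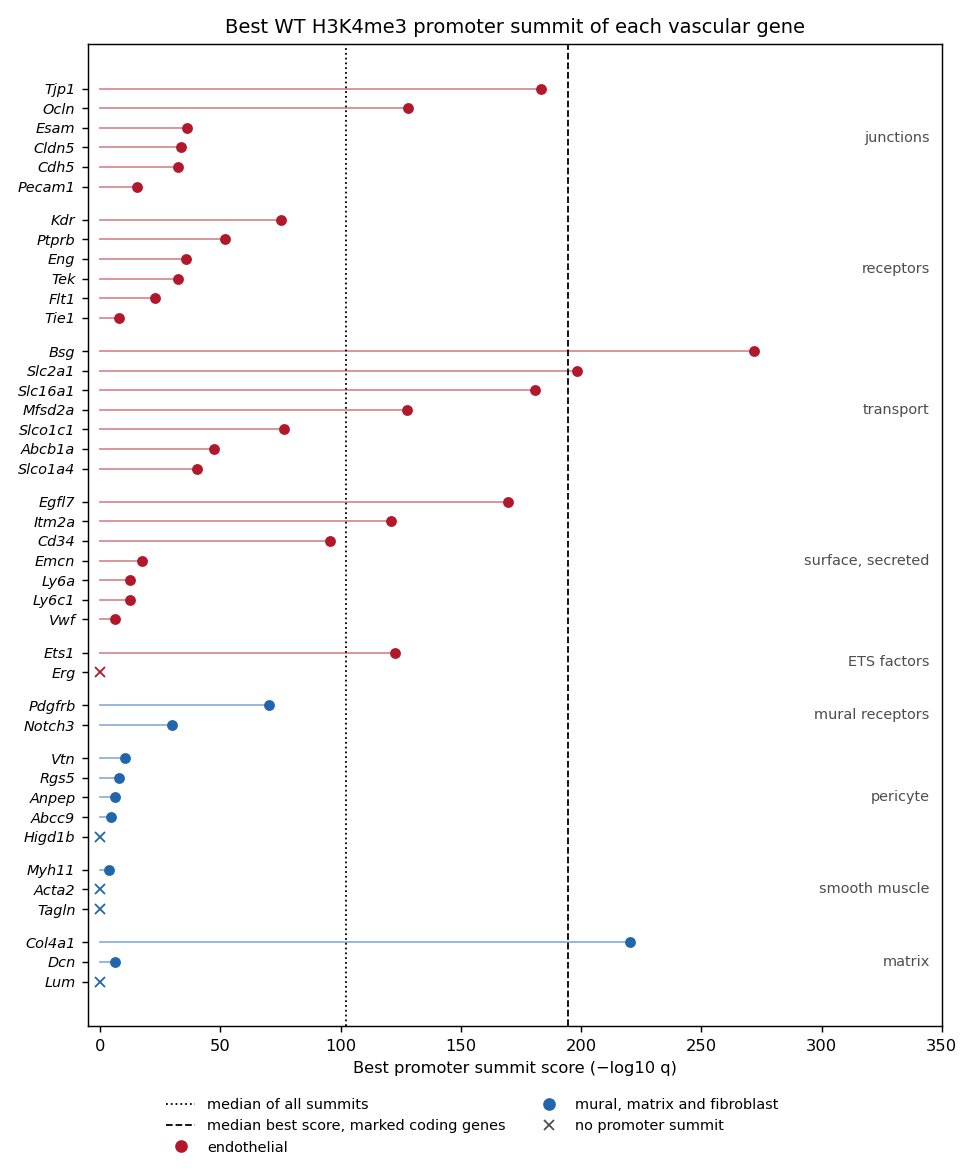
Best promoter summit score, −log10 q, of each of the 41 genes in the pooled WT list, grouped by role, with crosses at 0 for the 5 genes without a promoter summit. Most endothelial genes lie left of the dotted line (median of all summits, 102.3), and among mural, basement membrane and fibroblast genes Col4a1 alone lies right of it.

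The shares changed with the distance allowed between summit and TSS. With a window of 500 bp, 24 of 28 endothelial genes (85.7%) and 5 of 13 mural and fibroblast genes (38.5%) were marked, beside 57.1% of all protein-coding genes. The genes lost were Ly6a, Ptprb, Tjp1, Dcn, Myh11, Rgs5 and Vtn. With the outermost TSS of each gene only, the counts were 22 of 28 (78.6%) and 8 of 13 (61.5%), beside 58.2% of all. The interval of the difference, 17.0 points, then ran from -10.5 to 45.4 and included 0. The genes lost were Egfl7, Ly6a, Pecam1, Ptprb, Vwf and Anpep, whose summits lie at internal TSSs.

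Markers of other cells of the brain were marked as often as endothelial genes but scored higher. Lists of 20 genes each were used for neurons, astrocytes and oligodendrocytes. Astrocyte markers were marked in 19 cases with a median best score of 115, and oligodendrocyte markers in 18 cases with a median of 101. Of all protein-coding genes 64.7% were marked, with a median of 195. CpG-poor genes were 2 of the neuronal, 7 of the astrocyte and 9 of the oligodendrocyte markers, against 10 of the 28 endothelial genes. CpG-rich neuronal markers had a median of 205, against 149 for CpG-rich endothelial genes and 204 for marked CpG-rich genes in general. The part of CpG content in the neuronal difference was not tested. Of pairs with a marked endothelial gene, the marker of the other cell type had the higher score in 91.8% for neurons, 66.5% for astrocytes and 70.0% for oligodendrocytes. The ranges overlapped widely. The lowest marked astrocyte gene, Gfap, an intermediate filament, scored 29.2, and the highest endothelial gene, Bsg, scored 272.

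**Figure D2:**
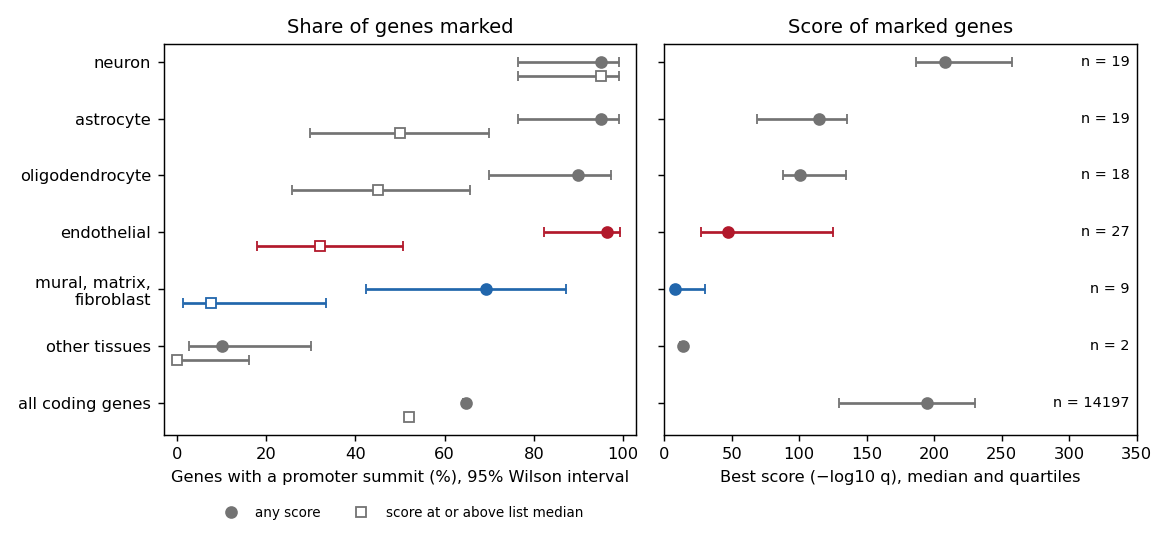
Left, percent of genes in each list with a promoter summit of any score (filled circles) and with a score at or above the list median (open squares), with 95% Wilson intervals. Right, median and quartiles of the best scores of marked genes. Endothelial genes were marked about as often as neuronal and glial markers, with a lower median score of 47.2, and mural, basement membrane and fibroblast genes were lowest among the brain lists at 8.01.

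CpG content differed among the vascular promoters. It was taken as the ratio of observed to expected CpG within 500 bp of a TSS, with genes called CpG-poor when their most CpG-rich TSS stayed under 0.4 and CpG-rich from 0.6 upward. Of the endothelial genes, 10 were CpG-poor, and all 10 of these were marked, beside 13% of the 7471 CpG-poor protein-coding genes. They were Cdh5, Pecam1, Tek, Tie1, Slco1a4, Slco1c1, Ly6a, Ly6c1, Emcn and Itm2a. Their median best score was 24.8, against 34.5 for the 969 marked CpG-poor genes in general, and in 57.2% of pairs the gene in general had the higher score. CpG-poor markers of oligodendrocytes were marked in 8 of 9 cases, with a median best score of 96.9. Those of astrocytes were marked in 6 of 7, with a median of 77.0, and those of other tissues in 2 of 17 cases. Endothelial CpG-poor genes were thus marked as often as the glial ones but scored lower. Of the 8 CpG-poor mural and fibroblast genes, 4 were marked (Rgs5, Vtn, Myh11 and Dcn), with scores of 3.77 to 10.2. The other 4 (Higd1b, Acta2, Tagln and Lum) were not.

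CpG-rich endothelial genes scored higher but did not reach the level of CpG-rich genes in general. All 10 were marked, beside 95.5% of CpG-rich protein-coding genes, with a median best score of 149 against 204. Of the 8 endothelial genes with a CpG content between the 2 limits, 7 were marked, beside 75.4% of such genes in general. Their median best score was 36.2 against 156. The 2 mural and fibroblast genes between these limits, Pdgfrb and Abcc9, were marked, with a median of 37.4. The 3 CpG-rich ones, Notch3, Anpep and Col4a1, were marked too, with a median of 29.9. Over the 36 marked genes of the module, CpG content at the marked TSS and best score had a Spearman rho of 0.65, and over the 14197 marked protein-coding genes a rho of 0.26. All points come from the same pooled list and share its depth, so these are descriptions. Exceptions stood on both sides. Flt1, at a CpG content of 0.81, scored 22.8, and Slco1c1, at 0.07, scored 76.6.

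**Figure D3:**
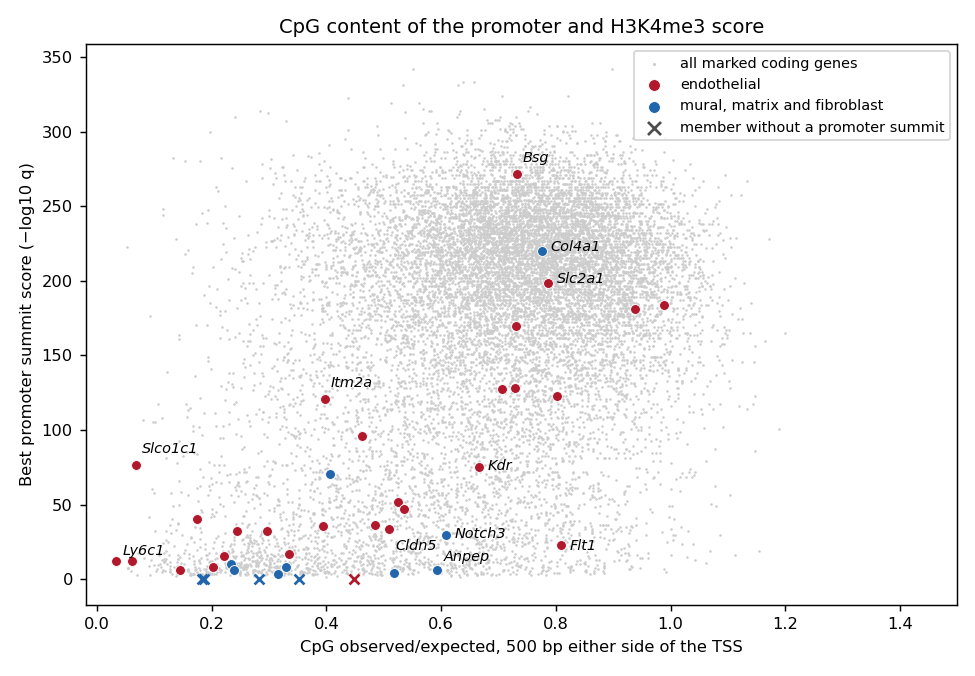
CpG observed over expected at the TSS nearest the best summit (horizontal) and best promoter score, −log10 q (vertical), for the marked members and, in grey, all marked protein-coding genes. Crosses at 0 are members without a promoter summit, placed at the CpG content of their outermost TSS. Members rise from Ly6c1 (0.03, score 12.2) to Bsg (0.73, score 272), with Flt1 low and Slco1c1 high for their CpG content.

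The promoter sequences show this range. The table of RefSeq promoters on GRCm38.p6 held 27 of the 41 genes. The 250 bases upstream of the start site are printed 5′ to 3′ for 7 of them, with every CpG in capitals. They were picked to span the scores and CpG contents of both groups. Slc2a1 (chr4:119108495-119108744, plus strand) has 13 CpGs and a gene score of 198. Kdr (chr5:75978456-75978705, minus strand) has 16 CpGs and a score of 75.4, and Cldn5 (chr16:18776597-18776846, plus strand) has 12 CpGs and a score of 33.8. Slco1c1 (chr6:141524104-141524353, plus strand) and Ly6c1 (chr15:75048664-75048913, minus strand) have 0 CpGs and scores of 76.6 and 12.2. Col4a1 (chr8:11312827-11313076, minus strand) has 31 CpGs and a score of 220.2. Acta2 (chr19:34255374-34255623, minus strand) has 4 CpGs and no promoter summit. The median over all 32851 promoters of the table is 6 CpGs.
Slc2a1: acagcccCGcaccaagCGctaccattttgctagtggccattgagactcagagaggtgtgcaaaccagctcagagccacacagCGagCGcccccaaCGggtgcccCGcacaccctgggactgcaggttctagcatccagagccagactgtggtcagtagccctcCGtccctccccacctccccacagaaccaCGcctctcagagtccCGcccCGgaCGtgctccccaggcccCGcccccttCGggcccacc
Kdr: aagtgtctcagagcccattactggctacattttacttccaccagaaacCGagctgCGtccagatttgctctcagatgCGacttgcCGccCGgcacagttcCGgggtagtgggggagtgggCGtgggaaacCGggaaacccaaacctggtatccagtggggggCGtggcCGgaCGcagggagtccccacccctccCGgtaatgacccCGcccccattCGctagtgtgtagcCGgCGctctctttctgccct
Cldn5: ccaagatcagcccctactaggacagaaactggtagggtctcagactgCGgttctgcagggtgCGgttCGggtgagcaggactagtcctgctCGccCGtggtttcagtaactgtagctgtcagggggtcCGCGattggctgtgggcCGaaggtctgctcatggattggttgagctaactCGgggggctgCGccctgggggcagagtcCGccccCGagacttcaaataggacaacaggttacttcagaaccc
Slco1c1: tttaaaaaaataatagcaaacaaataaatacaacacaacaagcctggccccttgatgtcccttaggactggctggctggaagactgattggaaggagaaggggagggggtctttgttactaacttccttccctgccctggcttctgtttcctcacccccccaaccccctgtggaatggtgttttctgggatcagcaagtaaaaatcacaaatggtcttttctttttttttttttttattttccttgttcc
Ly6c1: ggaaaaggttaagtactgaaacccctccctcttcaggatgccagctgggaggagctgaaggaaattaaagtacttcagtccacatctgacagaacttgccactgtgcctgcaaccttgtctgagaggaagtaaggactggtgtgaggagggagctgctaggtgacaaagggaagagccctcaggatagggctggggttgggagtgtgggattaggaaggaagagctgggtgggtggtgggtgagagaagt
Col4a1: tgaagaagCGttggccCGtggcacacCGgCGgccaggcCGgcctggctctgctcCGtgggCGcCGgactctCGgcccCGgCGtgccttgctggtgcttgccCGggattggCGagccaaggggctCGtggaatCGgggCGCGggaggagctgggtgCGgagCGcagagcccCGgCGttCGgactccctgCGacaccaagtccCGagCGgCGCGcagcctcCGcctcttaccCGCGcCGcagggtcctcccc
Acta2: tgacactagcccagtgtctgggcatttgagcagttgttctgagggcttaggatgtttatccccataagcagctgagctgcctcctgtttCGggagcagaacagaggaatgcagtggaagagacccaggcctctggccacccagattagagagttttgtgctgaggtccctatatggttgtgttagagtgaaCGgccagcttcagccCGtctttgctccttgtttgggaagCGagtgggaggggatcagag

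Short motifs were searched on both strands of the 300-base promoter windows, which run 250 bases before to 50 after the start site. Of the 27 genes, 25 had a window within 1 kb of the marked TSS, or of the outermost TSS where unmarked. The GC box core GGGCGG, which contains a CpG, was found in 13 of 25 windows (52.0%), beside 35.7% of all promoters. The core CCGGAA, which ETS factors bind, was found in 1 window, that of Kdr, beside 14.9% of all promoters. The TATA box core TATAAA was found in 4 (Flt1, Slco1c1, Slc2a1 and Vtn), beside 13.6%. These are matches of letters only.

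All 6 junction genes were marked, with scores from 15.5 to 184. Tjp1, encoding the scaffold ZO-1, scored 184, and Ocln, encoding the tight junction protein occludin, scored 128. Both proteins also occur in other cells with tight or adherens junctions. Esam scored 36.2, Cldn5 33.8 and Cdh5 32.3. Esam is an endothelial adhesion molecule, Cldn5 (ENSMUSG00000041378) encodes claudin-5, the main sealing claudin of the blood-brain barrier, and Cdh5 encodes VE-cadherin. Pecam1, the adhesion molecule CD31, was lowest at 15.5. These last 4 genes scored higher than 25.6 to 35.7% of the list's summits, whereas Ocln scored higher than 54.6%.

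Cldn5, an intronless gene of 1 exon on chromosome 16 (18776847 to 18778262, plus strand), carried a pair of summits around its single TSS. The stronger, at 18777739, lay 892 bp downstream inside the exon, and the weaker, at 18776494, lay 353 bp upstream with a score of 17.1. At Cdh5 the summit lay 202 bp downstream of the TSS, and at Pecam1 155 bp downstream.

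Receptors of the angiogenic pathways were all marked, and none reached the median score of the list. Kdr (ENSMUSG00000062960, chromosome 5), encoding VEGF receptor 2, was highest at 75.4, with its summit at 75978287, 171 bp downstream of the TSS in exon 1. Ptprb, encoding the phosphatase VE-PTP that acts on Tek, scored 51.8. Eng, encoding the TGF-beta co-receptor endoglin, scored 35.8, and Tek, encoding the angiopoietin receptor Tie2, scored 32.6. Flt1, encoding VEGF receptor 1, scored 22.8 at a CpG-rich promoter. Tie1, the orphan relative of Tek, scored 7.95, higher than 15.1% of the list.

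Transport genes included the strongest summit of the endothelial group, with 4 of 7 at or above the list median. Bsg, encoding basigin, a chaperone of monocarboxylate transporters that many cells express, scored 272, higher than 98.0% of the list. Slc2a1 (ENSMUSG00000028645, chromosome 4), encoding the glucose transporter GLUT1, scored 198 at 119109349, 435 bp downstream of a TSS. Slc16a1, encoding the monocarboxylate transporter MCT1, scored 181, and Mfsd2a, encoding a lysophospholipid transporter that limits transcytosis, scored 128. GLUT1, MCT1 and basigin are also used by glia.

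The other 3 transport genes scored below the list median. Slco1c1 (ENSMUSG00000030235, chromosome 6), encoding the thyroid hormone transporter OATP1C1, which astrocytes also express, scored 76.6 at 141524672, 137 bp downstream of a TSS. Abcb1a, encoding the drug efflux pump P-glycoprotein, scored 47.2, and Slco1a4, encoding the organic anion transporter OATP1A4, scored 40.2. Abcb1a and Slco1a4 have close relatives in the genome, and since the authors kept uniquely mapped reads, scores in such families may be too low.

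Surface and secreted proteins scored from 6.03 to 169.7. Egfl7, encoding a secreted factor of vessel formation, scored 169.7, Itm2a, encoding a transmembrane protein, 121, and Cd34, encoding a sialomucin of endothelial and blood progenitor cells, 95.8. Emcn, encoding endomucin, scored 17.3. The Ly6 antigens Ly6a and Ly6c1, which belong to a cluster of similar genes on chromosome 15, scored 12.6 and 12.2. Vwf, encoding von Willebrand factor, scored 6.03, the lowest of the marked endothelial genes. Leaving out Ly6a, Ly6c1, Slco1a4 and Abcb1a as members of multigene families gave an endothelial median of 75.4 in place of 47.2. Each of them scored 47.2 or less, so leaving them out could not lower the median. Slco1c1, at 76.6, was kept. Whether scores in such families are too low was not tested.

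The ETS family transcription factors Ets1 and Erg stood apart. Ets1 scored 123 at its TSS at 32696121 on chromosome 9, 112 bp upstream of the summit. A separate, outer TSS of Ets1 carried summits of 14.3 and 4.45. Erg was the endothelial gene without a promoter summit. Its nearest summit, at 95458200 on chromosome 16, scored 37.9 and lay 1045 bp downstream of a TSS, just outside the window. With a window of 3 kb Erg counted as marked, and all 28 endothelial genes were then marked, beside 67.1% of all protein-coding genes.

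Several endothelial genes carried summits at internal or alternative annotated TSSs. Tjp1 carried a summit of 184 at an outer TSS and a summit of 154 at a TSS far downstream. The outer TSS belongs to a transcript outside the basic set of GENCODE, and with basic transcripts only the score of Tjp1 was 154. At Egfl7, with 19 annotated TSSs, the summit of 169.7 lay at a CpG-rich internal TSS, and a summit 297 bp upstream of another TSS scored 4.82. The strong summit also lay within 1 kb of a TSS of Gm20532, an overlapping coding model, so it cannot be assigned to Egfl7 alone. At Esam a summit of 36.2 lay at a TSS outside the basic set, and that of the outermost TSS scored 5.74. In all, 8 of the 36 marked genes had 2 or more promoter summits (22.2%), beside 18.1% of marked genes in general.

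Among mural receptors, Pdgfrb, encoding the receptor through which endothelial PDGF-B recruits pericytes, scored 70.4, and Notch3, encoding the Notch receptor of arterial smooth muscle, scored 29.9. These were the highest scores among mural receptor, pericyte and smooth muscle genes. The pericyte markers were near the bottom of the list. Vtn, encoding vitronectin, scored 10.2, Rgs5, a regulator of G-protein signalling, 8.01, Anpep, the surface aminopeptidase CD13, 6.24, and Abcc9, a subunit of ATP-sensitive potassium channels, 4.45. Higd1b, a mitochondrial protein gene used as a pericyte marker, had no promoter summit, and its nearest one, 16320 bp away, lay at the promoter of Gjc1.

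Of the 3 contractile genes of smooth muscle, 1 was marked. Acta2 (ENSMUSG00000035783, chromosome 19), encoding smooth muscle actin, had no summit within 35171 bp of a TSS, and the summit at that distance belonged to the promoter of Fas. Tagln, encoding transgelin, had none within 18526 bp, where the promoter of Sidt2 scored 221. Myh11, encoding smooth muscle myosin heavy chain, had a summit 706 bp upstream of a TSS with a score of 3.77, the lowest of the module. These 3 genes were CpG-poor.

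The matrix genes were split. Col4a1 (ENSMUSG00000031502, chromosome 8), encoding the main collagen chain of basement membranes, scored 220.2 at 11313099, 273 bp upstream of its TSS. The same summit lay 294 bp downstream of the TSS of Col4a2, which is transcribed in the opposite direction from the shared promoter, so the score belongs to both genes. Dcn, encoding decorin, a proteoglycan of fibroblasts, scored 6.20, with its summit 809 bp downstream of a TSS. Lum, encoding the related lumican, had no promoter summit, and the nearest one, 84710 bp away, was that of Dcn. Leaving out Col4a1 and Egfl7, whose summits are shared with another coding gene, the medians were 7.13 for mural and fibroblast genes and 43.7 for endothelial genes.

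Best summits lay a median of 172 bp downstream of the TSS in endothelial genes and 274 bp downstream in mural and fibroblast genes, against 171 bp over all marked protein-coding genes. The summit was upstream in 4 of the 36 marked genes (11.1%), beside 20.7% in general. The 4 were Esam, Slc16a1, Myh11 and Col4a1. The summits closest to the edge of the window were those of Cldn5 (892 bp), Ptprb (826 bp) and Dcn (809 bp) inside it and that of Erg (1045 bp) outside it.

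**Figure D4:**
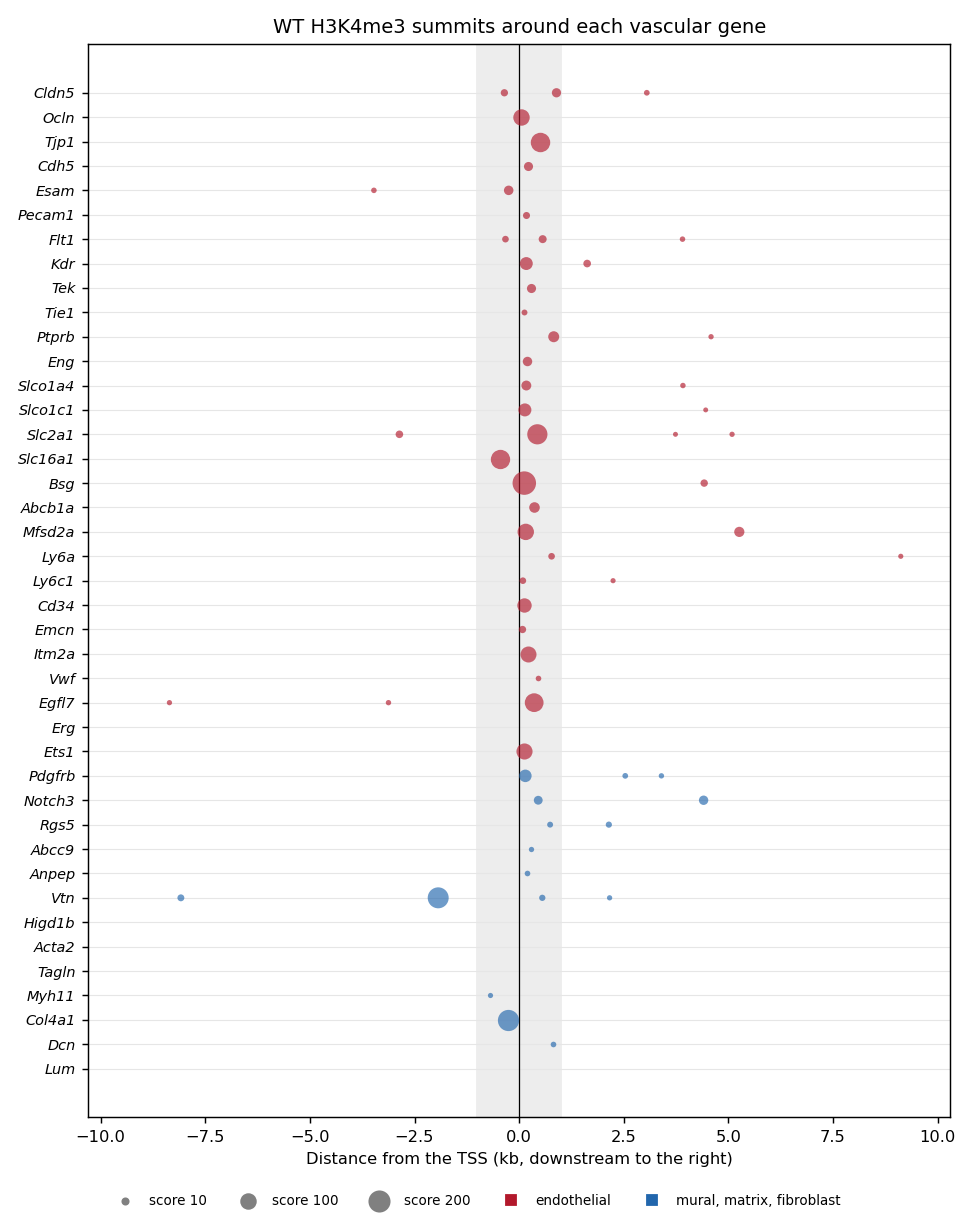
Summits within 10 kb of the TSS nearest the best summit, or of the outermost TSS for unmarked genes, with distance in kb along transcription and symbol area increasing with score. The grey band is the 1 kb promoter window. Most genes have 1 summit just downstream of the TSS, and the rows of Higd1b, Acta2, Tagln and Lum are empty. The summit of Erg lies at an internal TSS and outside the plotted range, and the large symbol at Vtn lies outside its window.

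Summits inside the gene but over 1 kb from its TSSs were present in 11 of the 28 endothelial genes (39.3%) and 3 of the 13 others (23.1%), beside 14.7% of protein-coding genes. They were not particular to these genes. The share was 40% for astrocyte, 65% for oligodendrocyte and 65% for neuronal markers, and 20% for genes of other tissues. For the vascular signalling genes, vascular transcription factors and further mural and fibroblast genes described below, it was 30.8%, 70% and 35%. Most inner summits of the 41 genes were weak. At Mfsd2a a summit in intron 3 scored 43.2, and at Kdr a summit in intron 1, 1625 bp from the TSS, scored 19.96. At Pdgfrb a summit in exon 7, 20668 bp downstream of the TSS, scored 48.6. An inner summit exceeded the best promoter summit in 3 marked genes (8.33%), beside 2.62% of marked genes in general. At Notch3 summits in exon 24 and intron 2 scored 40.9 and 35.1 against 29.9 at the promoter. At Vwf a summit in intron 6 of the transcript Vwf-203 scored 21.6 against 6.03, and at Rgs5 a summit in intron 1 scored 9.69 against 8.01.

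Other genes of vascular signalling were marked as often as the endothelial genes. Their median score was higher than that of all marked endothelial genes but not than that of the CpG-rich ones. Of 26 ligands, receptors and co-receptors of the VEGF, angiopoietin, Notch, TGF-beta, PDGF, Wnt and sphingosine pathways, 25 were marked (96.2%), with a median best score of 145. The highest were Pdgfb (229), encoding the ligand of Pdgfrb, the VEGF co-receptors Nrp2 (208) and Nrp1 (206), Reck (202), which with Adgra2 relays the Wnt7 signal to brain endothelium, and Fzd4 (179), a Wnt and norrin receptor whose summit also lies at a TSS of Tmem135. Of the ligands of VEGF receptors and Tek, Vegfa scored 156 and Angpt1 147, whereas Angpt2, the endothelial antagonist of Tek, scored 6.05. Dll4, encoding the Notch ligand of endothelial tip cells, had no promoter summit, with the nearest 1192 bp away at a score of 58.6. Many of these genes act in neurons or glia as well, and 1 of the 26, Angpt2, was CpG-poor, against 10 of the 28 endothelial genes. Their share of 96.2% stands beside 64.7% of all protein-coding genes and 95.5% of CpG-rich ones. The marked CpG-rich genes in general had a median best score of 204, and the CpG-rich endothelial genes, all marked, had a median of 149.

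Transcription factors known from endothelial cells had a median score closer to that of the endothelial genes as a whole. Of 20, 17 were marked (85.0%), with a median best score of 53.9. It was 47.2 for all marked endothelial genes and 149 for the CpG-rich ones. The share among CpG-rich protein-coding genes was 95.5%, and 1 of the 20, the unmarked Foxq1, was CpG-poor. The highest were Etv6 (249.5), Nr2f2 (229.7), Klf4 (209), Lmo2 (142) and Epas1 (137). The SOX factors of endothelium, Sox18, Sox7 and Sox17, scored 53.9, 32.8 and 32.7. The 3 without a promoter summit had 1 nearby. It lay 1087 bp from a TSS at Fli1, an ETS factor related to Erg, with a score of 66.6, 1532 bp at Foxo1 (158) and 2247 bp at Foxq1 (40.4).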

How the data were processed

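Amygdala nuclei of 2 WT mice were profiled by H3K4me3 ChIP-seq. According to the Methods and the labels, Bowtie was run against mm10 with up to 2 mismatches, non-unique reads were dropped, and MACS2 (2.1.0.20140616) called peaks with input as control. The authors deposited 1 list of 1-bp summits for both mice, with a score taken to be −log10 of a q-value, a scale the list does not name. Its lowest score lies above 1, as a q-value filter of 0.1 would give. The list gives no read depth for its scores. Of 24162 summits, 23 on contigs or mitochondrial DNA were left out.

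Summits were matched to TSSs of all transcripts in GENCODE version M21 on GRCm38, within 1 kb. The step was tested on simulated data. The members and gene lists were chosen with earlier results of these data known, and no p-value is given, since genes of 1 list are not replicates. All 41 members are named, and of the other vascular lists the 5 highest scores, the unmarked genes and genes sharing a summit with a member. The rule also covered the neuronal, glial and other-tissue lists, which are given by counts and medians to keep to the vascular genes. A few further genes, such as Gfap, Vegfa, Angpt1, Angpt2 and the SOX factors, were named after their values were seen. Sequences are from RefSeq. The RefSeq promoter table was matched by symbol, and Cdh5, Esam, Pecam1, Ptprb, Bsg, Ly6a, Vwf, Ets1, Pdgfrb, Higd1b, Tagln, Myh11, Dcn and Lum had no entry. Alternatives covered the window, the score threshold, joined summits, the TSSs used and, added after seeing the data, 2 sets of members left out. Computations used Python 3.11.15, numpy 2.4.6, pandas 2.3.3, scipy 1.17.1, statsmodels 0.14.6, pysam 0.24.0 and matplotlib 3.10.9.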

Additional observations from a re-analysis of the deposited data

How the results depend on the processing

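Of 45 values under alternative settings, 38 stayed within the counting interval of the value reported, 7 moved out of it and 0 turned the sign of the difference between the shares of marked genes. The order of the median scores turned under 1 setting. Counting only summits that scored 102.3 or more, the share of marked genes was 32.1% for endothelial and 7.69% for mural and fibroblast genes, and the median best scores of the genes left were 169.7 and 220.2, the reverse of their order over all summits, with Col4a1 the only mural or fibroblast gene left. The endothelial share was 100% with a window of 3 kb and 78.6% with the outermost TSS only, and the mural and fibroblast share was 38.5% with a window of 500 bp. The difference between the shares, 27.2 percentage points, ranged from 17.0 with the outermost TSS to 47.3 with 500 bp, and its interval included 0 with the outermost TSS and with summits of 102.3 or more (-4.85 to 44.0). The mural and fibroblast median was 29.9 in place of 8.01 with 500 bp, and the endothelial median was 75.4 in place of 47.2 without multigene families. With 3 kb, Vtn took a summit of 215 that lies nearer to the TSS of another gene than to its own. No paired analysis was possible because both WT mice went into a single summit list, which also prevented leaving either mouse out. The 13 mural and fibroblast genes are few, and the 1 pooled list limits every value to these mice.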

Other observations

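A further list of 20 mural and fibroblast genes showed scores between those of the endothelial genes and the 13 mural and fibroblast genes above. Of these, 16 were marked (80.0%, 95% Wilson interval 58.4 to 91.9%), with a median best score of 21.9, beside 64.7% of all protein-coding genes. The highest were Col4a2 (220.2), which shares its summit with Col4a1, Lama2 (136), encoding a laminin chain of basement membranes, Mcam (68.9), encoding the adhesion molecule CD146, Fn1 (64.8), encoding fibronectin, and Heyl (39.2), a transcription factor downstream of Notch. The fibrillar collagen genes of fibroblasts scored 22.8 for Col1a2, 4.98 for Col1a1 and 3.63 for Col3a1, and were named after their values were seen. The 4 without a promoter summit were Cspg4, with a summit of 33.3 at 1105 bp, Cnn1, with a summit of 7.12 at 3157 bp, Ndufa4l2, with a summit of 102.5 at 2923 bp, and Des, with none within 20328 bp. Des and Cnn1 encode the muscle proteins desmin and calponin.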
